A study of Homo sapiens with 14 samples.

Results

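The plasminogen activator system is represented here by 4 genes, namely PLAU, PLAUR, PLAT and SERPINE2, out of the 18377 genes that could be named on the array. They were picked by the gene symbol in the array annotation, and where a gene has several transcript clusters (groups of probes for 1 transcript) the brightest would be used. Each of the 4 had 1 cluster. PLAU encodes urokinase (uPA) and PLAT encodes tissue plasminogen activator (tPA), the serine proteases that cut plasminogen into the active protease plasmin. PLAUR encodes the receptor (uPAR) that holds urokinase on the cell surface, and SERPINE2 encodes protease nexin 1, a serpin that traps thrombin, urokinase, tPA and plasmin and is cleared with them by receptors of the LDL receptor family. Plasmin degrades fibrin and other matrix proteins and activates several pro-enzymes and growth factors, and urokinase and its receptor are known for their part in invasion of pancreatic cancer cells. PLAU and PLAUR are also known as genes that NF-kB can activate.

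MiaPaCa2 cells, which come from a human pancreatic carcinoma, gave total RNA for 14 Affymetrix whole-transcript arrays. All cells had been transfected by INTERFERin with a small interfering RNA (siRNA, which lowers the mRNA it is designed against) for NUPR1, RELB or RELA, or with a scrambled control siRNA that matches no known gene (siCtrl). NUPR1 encodes a stress-induced chromatin protein, and RELB and RELA encode DNA-binding subunits of NF-kB. Starved cells were kept in Earle's balanced salt solution (EBSS), without amino acids or growth factors. Glucose is part of the usual formula of EBSS, yet the labels describe it as glucose-free. A first set of 8 arrays (the Nupr1 set) followed siNupr1 and siCtrl cells at 0, 3, 6 and 9 h of EBSS. This set has no unstarved array after 0 h, so in it starvation and the hours passed since 0 h cannot be told apart. The other 6 arrays (the NF-kB set) were all taken at 9 h, with siRelB, siRelA and siCtrl, each in EBSS and in a medium called mock, of unstated composition. Each group is a single array without replicates, and whether the arrays stand for separate cultures is not stated. For siNupr1 at 9 h the array's title points to another siRNA, while the other label fields give siNupr1. The 0 h arrays carry the name of a growth medium in their titles and EBSS in another field, and were used as unstarved.

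Levels are the authors' log2 values from robust multi-array average (RMA), and the array medians lay between 5.67 and 5.84. Differences are log2 differences ± SE from 1 limma fit of set, siRNA and condition over all arrays, a gene counts as called where p adjusted by Benjamini-Hochberg is under 0.05, and n counts the pairs of arrays behind a difference. With single arrays the spread comes from how well siRNA and condition add up in this fit, and the number of arrays limits the precision. The share of all genes whose groups of arrays do not overlap was not counted, so where arrays of a group all lie above or below others this only describes the levels. The sets stood apart on a first principal component with 42.8% of the variance. That component also separated EBSS from mock within the NF-kB set, so its share is not that of the sets alone. Levels are set side by side only within a set, apart from ranges over all arrays and the siCtrl arrays compared at the end. Of the markers of epithelium, 4 of 6 lay above the level that 40% of genes do not reach (5.805), with KRT8 at a mean of 12.79 and KRT18 at 13.01, while CDH1 (4.53) and EPCAM (3.56) lay under it. Of fibroblast markers 3 of 6 lay above it, of leukocyte markers 1 of 4, of acinar markers 1 of 3 and of endothelial markers 0 of 4. COL1A2, a collagen gene counted with the fibroblast markers, had a mean of 10.23, and DCN and LUM were at 2.85 and 2.37. Each silenced gene was lower with its own siRNA, NUPR1 by -0.87 ± 0.10 (n = 4 pairs), RELB by -1.32 ± 0.17 and RELA by -2.49 ± 0.13 (n = 2 pairs each). With siNupr1, RELB differed from siCtrl by -0.67 ± 0.12 as well (n = 4 pairs, adjusted p = 0.000945). NUPR1 itself differed by -0.43 ± 0.14 between siRelB and siCtrl (adjusted p = 0.0442 over 2 pairs), a call lost without the filter on dim genes (adjusted p = 0.0807).

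The siRNAs that define the comparisons are given as the submitters' protocol lists them, 5′ to 3′ and without the deoxythymidine overhangs that it marks. NUPR1 lies on chromosome 16, RELB on chromosome 19 and RELA on chromosome 11. The protocol gives a pair of siRNAs each for NUPR1 and RELB, and the labels do not say which of them each array received. Capitals mark a run of 15 bases that both RELB siRNAs share, so the pair targets overlapping sites.
siNupr1: ggaggacccaggacaggau
siNupr1#2: aggucgcaccaagagagaa
siRelB: GGAUUUGCCGAAUUAacaa
siRelB#2: cugcGGAUUUGCCGAAUUAuu
RelA/p65: gaucaauggcuacacagg

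PLAU and PLAUR, whose levels moved together over the arrays, are also shown by the 250 bases before a RefSeq transcript start (GRCh38.p14). These windows were searched on both strands. The Sp1 motif was GGGCGG, the core of the sites that this factor binds. The AP-1 motif was TGACTCA, and matches of different motifs do not overlap in these windows. The cyclic AMP response element (CRE) was searched as TGACGTCA. The TATA box was searched as TATAAA. The kappaB motif, the kind of site that NF-kB binds, was searched as GGGRNNYYCC (R for A or G, Y for C or T, N for any base). Sites that depart from these letters were not searched. Capitals mark the matches. RefSeq lists PLAU with 2 starts. The window of the downstream one, chr10:73910882-73911131 on the plus strand, holds 3 GGGCGG matches, the nearest of which begins at position -40 relative to the start.
PLAU: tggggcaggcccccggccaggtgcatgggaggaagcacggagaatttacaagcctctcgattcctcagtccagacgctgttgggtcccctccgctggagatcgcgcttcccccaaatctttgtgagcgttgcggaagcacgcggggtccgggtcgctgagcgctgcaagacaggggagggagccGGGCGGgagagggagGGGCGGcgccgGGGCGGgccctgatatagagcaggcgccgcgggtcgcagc
The window of the upstream PLAU start, chr10:73910360-73910609, holds none of the motifs. The PLAUR window, chr19:43670170-43670419 on the minus strand, holds 1 AP-1 match, written here as its reverse complement TGAGTCA, which begins at position -186.
PLAUR: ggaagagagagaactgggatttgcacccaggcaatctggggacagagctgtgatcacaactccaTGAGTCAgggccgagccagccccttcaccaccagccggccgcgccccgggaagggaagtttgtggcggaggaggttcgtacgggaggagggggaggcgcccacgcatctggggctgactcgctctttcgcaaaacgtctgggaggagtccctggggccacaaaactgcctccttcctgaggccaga
SERPINE2 has 2 starts on chromosome 2, whose windows hold 1 and 2 GGGCGG matches. Over the 35116 windows of this length in the same table, 42.6% hold GGGCGG, 4.2% the AP-1 motif, 1.65% the CRE, 10.7% TATAAA and 9.96% the kappaB motif. No kappaB, CRE or TATAAA match lies in the PLAU, PLAUR or SERPINE2 windows, which says only that these letters are not in these bases.

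PLAU was the brightest of the 4 clusters, with levels from 10.01 to 11.26, a 2.39-fold range over the 14 arrays. PLAUR lay between 8.22 and 9.47, a 2.38-fold range. PLAT lay between 5.48 and 5.88 and was above 5.805 on 3 of 14 arrays. SERPINE2 lay between 4.07 and 5.86 and was above 5.805 on 1 of 14 arrays, with a 3.44-fold range. For PLAUR, PLAT and SERPINE2 the lowest and the highest array belong to different sets, so these ranges include the set difference. Within a set SERPINE2 spanned 1.40 (NF-kB set) and 1.35 (Nupr1 set) on the log2 scale. Clusters differ in their probes, so these levels do not rank the mRNAs against each other. PLAU and PLAUR were among the 11026 genes that passed the filter on dim genes, while PLAT and SERPINE2 did not and were tested in the same fit without the filter, over all 18377 genes. RMA compresses differences of dim clusters, so the SERPINE2 and PLAT differences are those of dim signals.

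PLAU was higher in starved cells, and against 0 h it was so by the first time measured. In the NF-kB set PLAU had levels of 10.85, 10.45 and 11.26 in EBSS with siRelB, siRelA and siCtrl, against 10.12, 10.01 and 10.66 in mock medium. Each EBSS array was above the mock array of its own siRNA, by 0.73, 0.45 and 0.60, while the ranges of the media overlapped because siRelA in EBSS lay below siCtrl in mock. The difference was 0.59 ± 0.08 (n = 3 pairs, limma adjusted p = 4.58e-06), or 1.51-fold. In this comparison 51.9% of the 11026 genes were called (22.6% rose), so a call by itself is common here. Each array holds the pooled RNA of a culture, so here and in the comparisons that follow a change in the share of expressing cells and a change in mRNA per cell cannot be told apart.

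**Figure D1:**
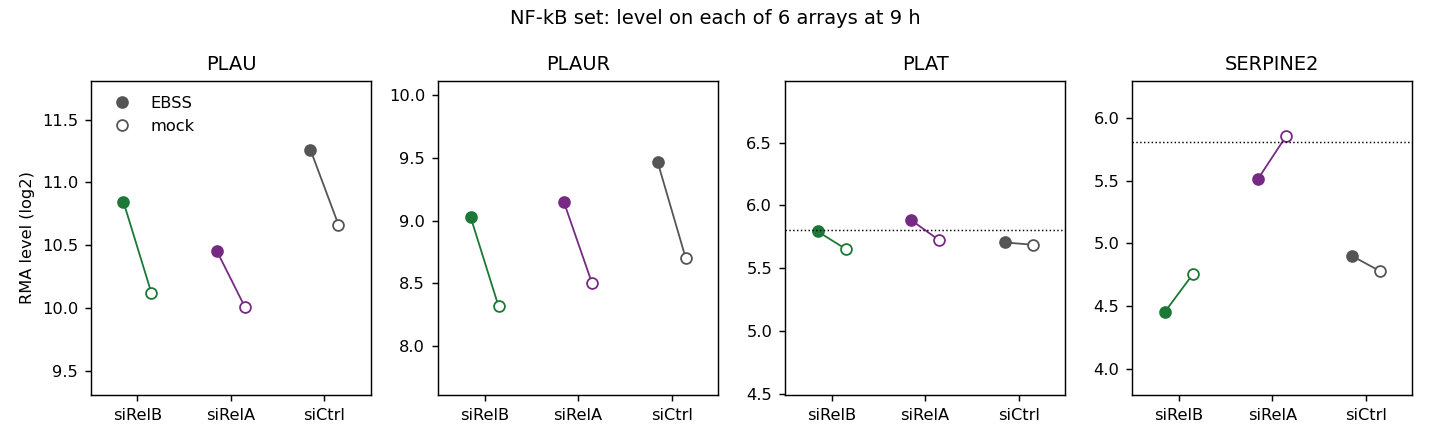
RMA level (log2) of the 4 genes on each of the 6 arrays of the NF-kB set at 9 h, with siRelB, siRelA and siCtrl from left to right, filled circles for EBSS and open circles for mock, joined within an siRNA. The dotted line is the filter level of 5.805. PLAU and PLAUR lie higher in EBSS than in mock with every siRNA, and SERPINE2 lies higher with siRelA than with siRelB or siCtrl in both media.

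In the Nupr1 set PLAU had levels of 10.19, 10.67, 10.78 and 10.64 with siNupr1 and 10.45, 10.89, 10.95 and 11.10 with siCtrl, at 0, 3, 6 and 9 h. All 6 starved arrays lay above both unstarved ones. PLAU was higher by 0.46 ± 0.10 at 3 h (adjusted p = 0.00358), 0.55 ± 0.10 at 6 h (adjusted p = 0.000414) and 0.55 ± 0.10 at 9 h (adjusted p = 0.000356), each with n = 2 pairs and the 0 h arrays in common. The share of the 11026 genes called was 12.3% at 3 h, 23.4% at 6 h and 24.3% at 9 h, and those that rose were 3.27%, 7.65% and 9.19%. The call at 3 h was lost without the siNupr1 array at 3 h (0.42, adjusted p = 0.0962). The rise at 9 h over 0 h minus the rise in EBSS over mock was -0.04 ± 0.13 (95% interval -0.30 to 0.22, adjusted p = 0.832), a contrast in which 24.5% of genes were called.

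PLAUR was higher in starved cells too, and against 0 h it passed the test at 6 and 9 h. In the NF-kB set PLAUR had levels of 9.03, 9.15 and 9.47 in EBSS with siRelB, siRelA and siCtrl, against 8.32, 8.50 and 8.71 in mock medium. Here the lowest EBSS array was above the highest mock array, a separation whose share over all genes was not counted. The difference was 0.71 ± 0.09 (n = 3 pairs, adjusted p = 3.04e-06), or 1.63-fold, with 0.71, 0.65 and 0.77 in the siRelB, siRelA and siCtrl pairs. In the Nupr1 set PLAUR had levels of 8.22, 8.32, 8.59 and 8.64 with siNupr1 and 8.52, 8.67, 9.10 and 9.11 with siCtrl, at 0, 3, 6 and 9 h. The difference to 0 h was 0.13 ± 0.11 at 3 h (95% interval -0.11 to 0.36, adjusted p = 0.524), which did not pass the test. It was 0.47 ± 0.11 at 6 h (adjusted p = 0.00464) and 0.51 ± 0.11 at 9 h (adjusted p = 0.00254). The 6 h call was lost without the siCtrl array at 0 h (0.40, adjusted p = 0.0833) or at 6 h (0.40, adjusted p = 0.141). Whether the time courses of PLAU and PLAUR differ was not tested. The PLAUR rise over 0 h at 9 h minus that over mock was -0.20 ± 0.15 (95% interval -0.51 to 0.10, adjusted p = 0.313).

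**Figure D2:**
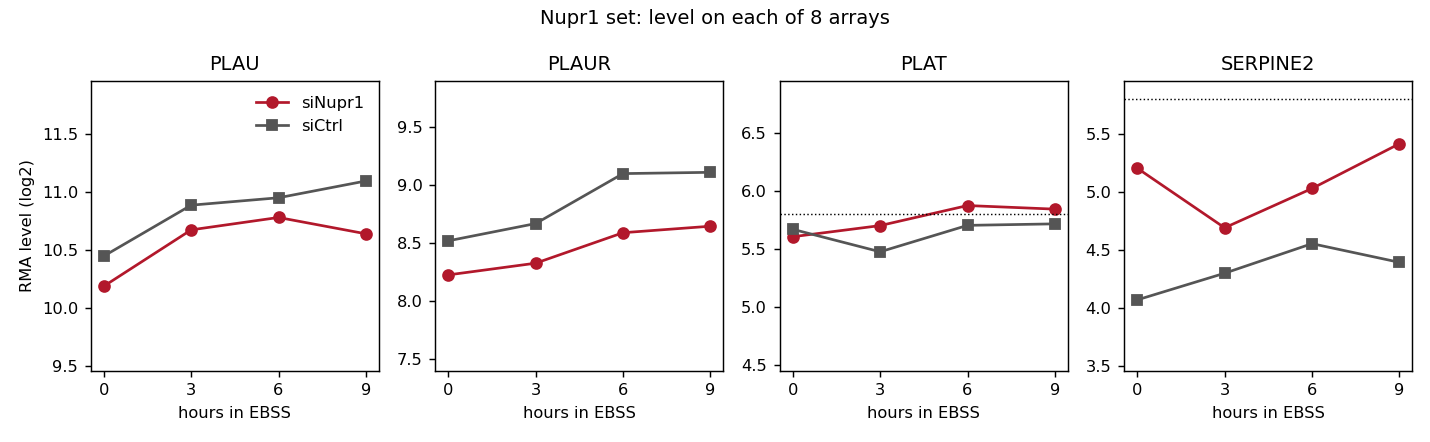
RMA level (log2) of the 4 genes against hours in EBSS (0, 3, 6 and 9 h) on the 8 arrays of the Nupr1 set, red circles for siNupr1 and grey squares for siCtrl, 1 array per point. The dotted line is the filter level of 5.805. The siNupr1 line lies below the siCtrl line at all 4 times for PLAU and PLAUR and above it at all 4 times for SERPINE2.

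With siNupr1, PLAU and PLAUR fell and SERPINE2 rose. The PLAU and PLAUR levels above were lower with siNupr1 than with siCtrl at each of the 4 times, starved or not, by 0.17 to 0.46 for PLAU and by 0.29 to 0.51 for PLAUR on the log2 scale. The difference was -0.27 ± 0.07 for PLAU (n = 4 pairs, adjusted p = 0.00909), to 0.827 of the siCtrl level. For PLAUR it was -0.40 ± 0.08 (n = 4 pairs, adjusted p = 0.00173), to 0.757 of the siCtrl level. In this comparison 18.4% of the 11026 genes were called and 8.58% fell. Of the PLAU pairs the 9 h pair, whose siNupr1 array has the title in doubt, differed most (-0.46), and without that array the calls of PLAU and PLAUR held, as they did without any other single array. The change of the difference per hour was -0.02 ± 0.02 for both genes (adjusted p = 0.611 for PLAU and 0.538 for PLAUR).

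SERPINE2 had levels of 5.21, 4.70, 5.03 and 5.42 with siNupr1, against 4.07, 4.30, 4.56 and 4.40 with siCtrl, at 0, 3, 6 and 9 h. All siNupr1 arrays lay above all siCtrl arrays of the set, and all 8 lay below the filter level. The difference was 0.76 ± 0.13 (n = 4 pairs, adjusted p = 0.00134 in the fit without the filter), or 1.69-fold, with pairs of 1.14, 0.39, 0.48 and 1.02. In that fit 9.63% of the 18377 genes were called and 5.14% rose. The call held without any single array. PLAT had levels of 5.61, 5.70, 5.88 and 5.85 with siNupr1 and 5.67, 5.48, 5.71 and 5.72 with siCtrl at the same times. Its difference was 0.12 ± 0.10 (95% interval -0.09 to 0.32, adjusted p = 0.579) and did not pass the test.

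With siRelA, PLAU fell and SERPINE2 rose, while PLAUR did not pass the test. PLAU levels with siRelA were 10.45 in EBSS and 10.01 in mock, against 11.26 and 10.66 with siCtrl, and the siRelA arrays of both media lay below both siCtrl arrays. The difference was -0.73 ± 0.10 (n = 2 pairs, adjusted p = 2.99e-05), to 0.602 of the siCtrl level, and the call held without any single array. In this comparison 21.5% of the 11026 genes were called and 11.4% fell. PLAUR levels with siRelA were 9.15 in EBSS and 8.50 in mock, against 9.47 and 8.71 with siCtrl, lower in both pairs. Its difference of -0.27 ± 0.11 (95% interval -0.50 to -0.03, adjusted p = 0.105) did not pass the test.

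With siRelA, SERPINE2 was at 5.52 in EBSS and 5.86 in mock, against 4.90 and 4.78 with siCtrl. The siRelA array in mock was the only one of the 14 on which SERPINE2 was above the filter level. The difference was 0.85 ± 0.18 (n = 2 pairs, adjusted p = 0.00502 in the fit without the filter), or 1.8-fold, where 11.5% of the 18377 genes were called and 5.34% rose. The call was lost without the siCtrl array in mock (0.62, adjusted p = 0.167) or the siRelA array in mock (0.72, adjusted p = 0.116). PLAT was at 5.88 and 5.72 with siRelA, against 5.71 and 5.69 with siCtrl, and its difference of 0.11 ± 0.14 did not pass (adjusted p = 0.743).

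With siRelB, PLAU and PLAUR fell. PLAU levels with siRelB were 10.85 in EBSS and 10.12 in mock, against 11.26 and 10.66 with siCtrl, a difference of -0.48 ± 0.10 (n = 2 pairs, adjusted p = 0.00184), to 0.717 of the siCtrl level. PLAUR was at 9.03 and 8.32 with siRelB, against 9.47 and 8.71 with siCtrl, a difference of -0.41 ± 0.11 (n = 2 pairs, adjusted p = 0.0158), to 0.751 of the siCtrl level. Both genes were lower in both media, where 16.1% of the 11026 genes were called and 8.55% fell. The PLAU call was lost without the siRelB array in mock (-0.38, adjusted p = 0.083). The PLAUR call was lost without any 1 of the 4 arrays it rests on, with differences of -0.46 to -0.37 and adjusted p of 0.0837 to 0.174. SERPINE2 was at 4.45 and 4.75 with siRelB, against 4.90 and 4.78 with siCtrl, and its difference of -0.24 ± 0.18 (95% interval -0.62 to 0.15, adjusted p = 0.555) did not pass. PLAT was at 5.79 and 5.65 with siRelB, against 5.71 and 5.69 with siCtrl, and differed by 0.03 ± 0.14 (adjusted p = 0.952). In the fit without the filter 8.37% of genes were called. The siRelB and siRelA differences share the siCtrl arrays.

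Set directly against each other, the siRelB and siRelA arrays differed for SERPINE2. Its levels with siRelB were 4.45 in EBSS and 4.75 in mock, against 5.52 and 5.86 with siRelA. The difference was -1.08 ± 0.18 (n = 2 pairs, adjusted p = 0.00169 in the fit without the filter), to 0.472 of the siRelA level, where 4.95% of the 18377 genes were called and 2.27% fell. This call was lost without the siRelA array in mock (-0.96, adjusted p = 0.0674) or the siRelB array in EBSS (-0.99, adjusted p = 0.0538). PLAU was higher with siRelB than with siRelA by 0.25 ± 0.10 (95% interval 0.05 to 0.46, adjusted p = 0.111), which did not pass, where 10.1% of the 11026 genes were called. After quantile normalization of the deposited values the PLAU difference was 0.31 and passed (adjusted p = 0.0299). PLAUR differed by -0.15 ± 0.11 (95% interval -0.38 to 0.09, adjusted p = 0.49) and PLAT by -0.08 ± 0.14 (adjusted p = 0.87).

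**Figure D3:**
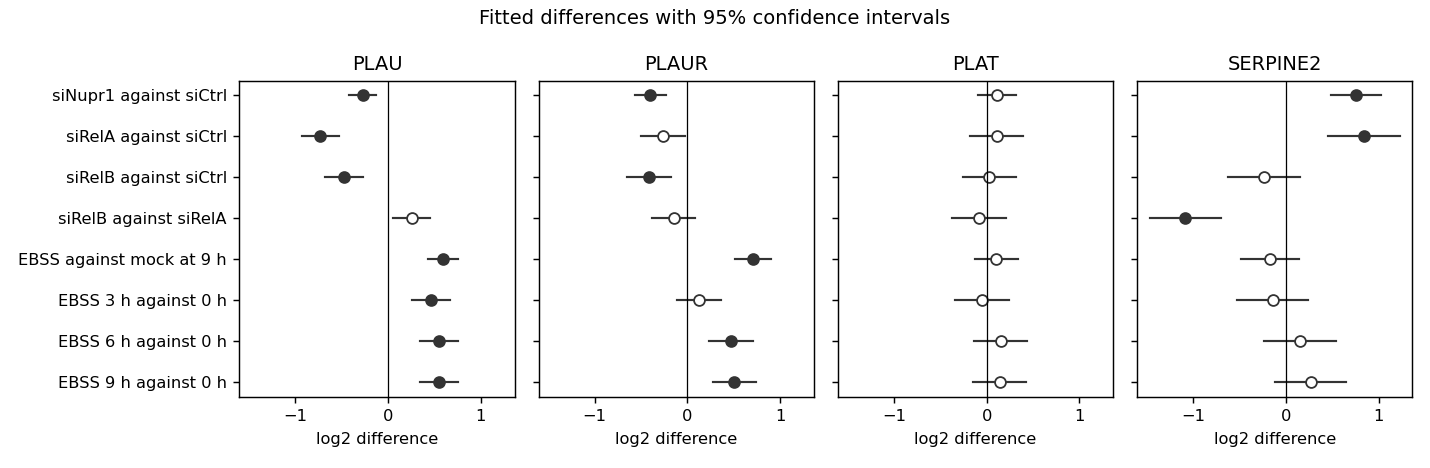
Fitted log2 differences of the 4 genes with 95% confidence intervals in 8 comparisons, filled circles for adjusted p under 0.05 and open circles for others. PLAT and SERPINE2 come from the fit without the filter on dim genes. PLAU and PLAUR lie left of 0 in the siRNA comparisons with siCtrl and right of 0 in the starvation comparisons, SERPINE2 lies right of 0 with siNupr1 and siRelA, and the PLAT intervals all cover 0.

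Starvation itself moved neither SERPINE2 nor PLAT past the threshold. SERPINE2 differed by -0.17 ± 0.15 between EBSS and mock (adjusted p = 0.383), and by -0.14 ± 0.18, 0.16 ± 0.18 and 0.27 ± 0.18 at 3, 6 and 9 h (adjusted p = 0.748, 0.656 and 0.43). Its EBSS arrays lay below the mock arrays with siRelB and siRelA and above the mock array with siCtrl. PLAT differed by 0.11 ± 0.11 between EBSS and mock (adjusted p = 0.475) and by -0.05 to 0.15 over the hours in EBSS. Its 95% intervals over all 8 comparisons ran from -0.37 to 0.44, so larger changes of PLAT signal lay outside them. In the fit without the filter 33.5% of genes were called between EBSS and mock, and 6.78%, 14% and 14.5% at 3, 6 and 9 h.

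Whether an siRNA acted differently in EBSS and in mock was tested in a fit with that term. The siRelA difference in EBSS minus that in mock was -0.15 ± 0.19 for PLAU, -0.12 ± 0.24 for PLAUR and -0.46 ± 0.37 for SERPINE2, and none passed (adjusted p = 0.999 for PLAU and PLAUR, and 1 for SERPINE2). For siRelB it was 0.13 ± 0.19, -0.05 ± 0.24 and -0.42 ± 0.37 for the same genes (adjusted p = 1 for each). Over all genes these terms called 0.0363% (siRelA) and 0% (siRelB), with 572 and 401 genes at an unadjusted p under 0.05 in limma. The spread in that fit rests on the Nupr1 set alone.

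The levels were also ranked within each set. A gap between neighbours was taken as within the spread where it was below the SE of a difference of 2 single arrays, 0.137 for PLAU, 0.16 for PLAUR, 0.194 for PLAT and 0.26 for SERPINE2. This low cut is no test, so a gap above it does not establish the order of 2 arrays. For PLAU in the NF-kB set the order from the top was siCtrl EBSS, siRelB EBSS, siCtrl mock, siRelA EBSS, siRelB mock and siRelA mock, and of its 5 gaps only the last one, between the mock arrays of siRelB and siRelA, was within the spread. For PLAUR in that set the order was siCtrl, siRelA and siRelB in EBSS, then the same order in mock, and only the gap between siRelA and siRelB in EBSS was within the spread. The gap between these siRNAs in mock (0.183) was little above the cut, and PLAUR did not pass in siRelB against siRelA (limma adjusted p = 0.49). In the Nupr1 set 4 of 7 gaps of PLAU and 5 of 7 of PLAUR were within the spread, with siCtrl at 9 h highest and siNupr1 at 0 h lowest for both. Every gap of PLAT was within the spread in both sets (7 of 7 and 5 of 5). For SERPINE2 the 4 siNupr1 arrays ranked above the 4 siCtrl arrays, with 6 of 7 gaps within the spread. Among these was the gap that parts the groups, 0.137 between siNupr1 at 3 h and siCtrl at 6 h. In the NF-kB set both siRelA arrays were above the rest by more than the spread.

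Across the 14 arrays, after each set was centred on its mean, PLAU and PLAUR correlated at Pearson r = 0.852. PLAU and SERPINE2 correlated at -0.455, and PLAT at 0.089 with PLAU and 0.258 with PLAUR. With the silenced genes, PLAU had r = 0.753 with NUPR1, 0.774 with RELB and 0.612 with RELA. PLAUR had r = 0.816 with NUPR1, 0.881 with RELB and 0.249 with RELA, and SERPINE2 had -0.637 with RELA. These are descriptions over arrays that share siRNAs and media by design. Among tested genes the 3 most like PLAU by this measure were COX7A2L (r = 0.928), ZBTB22 (0.919) and SHH (0.915), and 7 of the other 11025 genes had r above 0.9. The 3 most like PLAUR were NFKB2 (0.934), BCL2L12 (0.924) and LEMD2 (0.906), with 6 genes above 0.9. SERPINE2 had H2BC12 (0.893), OSBPL10 (0.893) and TBCE (0.879), PLAT had MT1P3 (0.838), HK1 (0.824) and STOM (0.814), and neither had a gene above 0.9.

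The other genes of the pathway were taken from 8 lists. The 7 other inhibitors of the activators and of plasmin that were measured all lay under the filter. PLG, the plasminogen gene itself, lay between 3.90 and 5.05 and was above the filter level on 0 of 14 arrays. In the fit without the filter PLG differed by 0.53 ± 0.13 between EBSS and mock (adjusted p = 0.0051), where 33.5% of genes were called. At 9 h against 0 h it went the other way, by -0.48 ± 0.16, and did not pass (adjusted p = 0.0597). The PLG starvation contrasts differed by -1.01 ± 0.21 (adjusted p = 0.00324), so this dim signal had no common direction in the 2 sets. All 8 matrix metalloprotease genes listed, whose pro-enzymes plasmin can help to activate, lay under the filter too. In all, 28 genes of the lists were tested, and of these 7 rose and 5 fell between EBSS and mock with a median difference of 0.13, while of all genes tested 22.6% rose and 29.3% fell, with a median of 0.05. At 9 h against 0 h, 2 rose and 1 fell, where 9.19% and 15.1% of all genes did, and the median was -0.04 in both. With siNupr1, 8 rose and 4 fell, where 9.86% and 8.58% of all genes did, with a median of 0.08 beside 0.01 over all genes. With siRelB, 2 rose and 3 fell (7.58% and 8.55% of all genes), and with siRelA, 4 rose and 3 fell (10.1% and 11.4%).

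Genes for the clearance of protease and inhibitor complexes split by gene. VLDLR, an endocytic receptor for such complexes, was higher at 9 h against 0 h by 1.25 ± 0.13 (n = 2 pairs, adjusted p = 1.31e-06), with 1.30 in the siNupr1 pair and 1.19 in the siCtrl pair. Between EBSS and mock VLDLR differed by 0.23 ± 0.11 and did not pass (adjusted p = 0.0754), and the 2 starvation contrasts differed by 1.01 ± 0.17 (adjusted p = 0.000236). LRP8, another receptor of that family, was lower by -0.98 ± 0.12 (adjusted p = 4.26e-06), lower in EBSS than in mock by -0.67 ± 0.09, and lower with siRelA by -0.86 ± 0.12 (adjusted p = 3.28e-05). IGF2R, which binds PLAUR and plasminogen among other ligands, rose at 9 h against 0 h by 0.45 ± 0.11, with siRelB by 0.32 ± 0.11 and with siRelA by 0.42 ± 0.11. In EBSS against mock IGF2R differed by -0.03 ± 0.09 (adjusted p = 0.748), and its starvation contrasts differed by 0.49 ± 0.14 (adjusted p = 0.0143). LRPAP1, the chaperone of these receptors, rose with siNupr1 by 0.51 ± 0.08 (n = 4 pairs, adjusted p = 0.000328). LRP8 and VLDLR fell with siNupr1, by -0.37 ± 0.08 (limma adjusted p = 0.00439) and -0.32 ± 0.09 (limma adjusted p = 0.0219). LRP1, a receptor that takes up urokinase in complex with serpins, did not pass in any of the 8 comparisons.

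Of the 6 tested genes for vitronectin and the integrins that partner PLAUR, ITGAV (integrin alpha V) fell most between EBSS and mock, by -1.54 ± 0.11 (n = 3 pairs, adjusted p = 1.95e-09), with pairs of -1.52, -1.40 and -1.69. ITGB1 (integrin beta 1) fell by -0.59 ± 0.09 in the same comparison, while ITGA3 rose by 0.33 ± 0.09. At 6 h against 0 h ITGAV fell by -0.41 ± 0.13 (adjusted p = 0.0301) and ITGA3 rose by 0.41 ± 0.11 (adjusted p = 0.00838). At 9 h against 0 h none of the 6 passed, and the difference of the 2 starvation contrasts was 1.27 ± 0.17 for ITGAV (adjusted p = 2.15e-05) and 0.66 ± 0.14 for ITGB1 (adjusted p = 0.00135). ITGB1 fell with siRelB by -0.88 ± 0.10 (n = 2 pairs, adjusted p = 1.75e-05). ITGAV fell with siNupr1 by -0.60 ± 0.09 and with siRelA by -0.48 ± 0.13, and ITGA5 rose with siNupr1 by 0.45 ± 0.09.

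**Figure D4:**
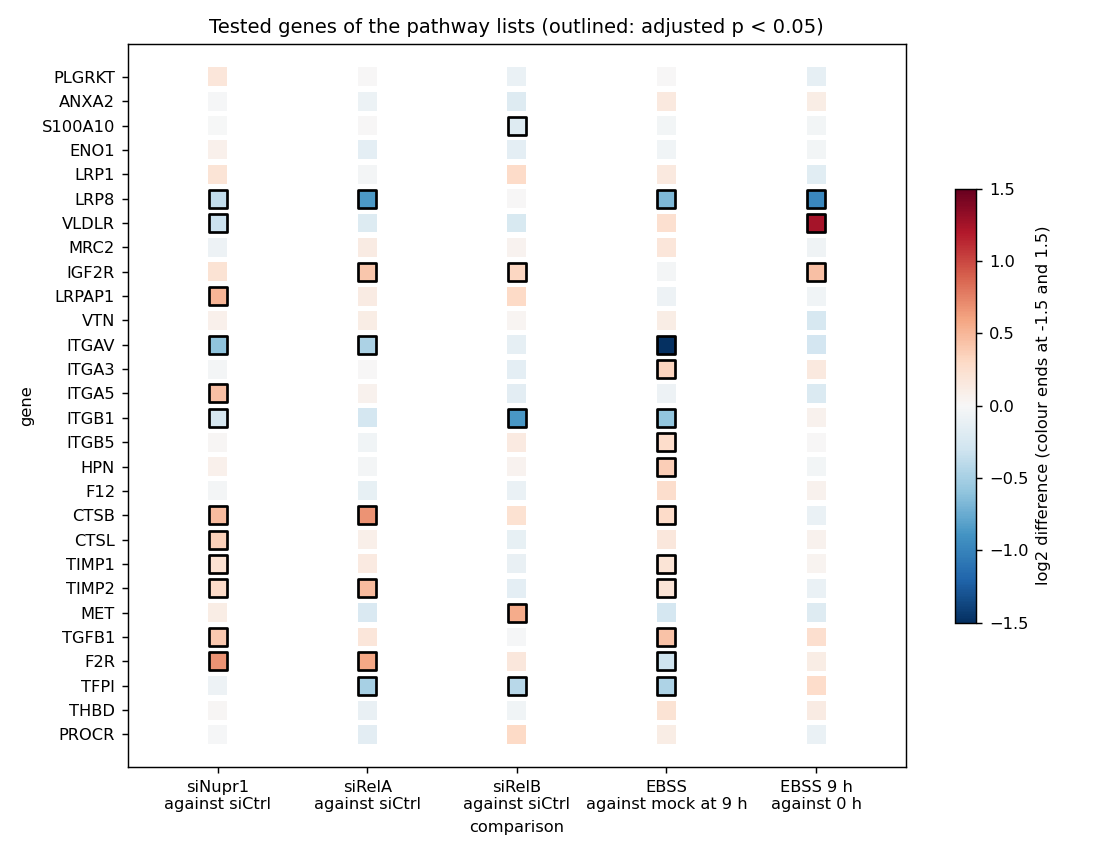
Fitted log2 differences of the 28 tested pathway genes (rows) in 5 comparisons (columns), red for higher and blue for lower, with colour ending at -1.5 and 1.5 and black outlines for adjusted p under 0.05. ITGAV in EBSS against mock (-1.54) and VLDLR at 9 h against 0 h (1.25) are the darkest cells.

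Of the tested proteases that can activate pro-urokinase or plasminogen, 2 of 4 rose in EBSS over mock, 2 with siNupr1 and 1 with siRelA, where 22.6%, 9.86% and 10.1% of all genes rose, so nothing is read from these counts. CTSB, the lysosomal protease cathepsin B, rose with siRelA by 0.68 ± 0.10 (adjusted p = 7.4e-05, n = 2 pairs), with siNupr1 by 0.48 ± 0.07 (n = 4 pairs, adjusted p = 0.000158) and in EBSS over mock by 0.28 ± 0.08. CTSL, cathepsin L, rose with siNupr1 by 0.36 ± 0.08, and HPN, the membrane protease hepsin, rose in EBSS over mock by 0.37 ± 0.11. Both tested inhibitors of metalloproteases rose in EBSS over mock and with siNupr1, TIMP2 by 0.21 ± 0.06 and 0.28 ± 0.06, and TIMP1 by 0.20 ± 0.06 and 0.22 ± 0.05. With only 2 genes tested, and 22.6% and 9.86% of all genes rising, nothing is read from this count either. The TIMP1 differences in the siNupr1 pairs ran from 0.314 at 0 h to 0.074 at 9 h. TIMP2 also rose with siRelA by 0.47 ± 0.08, and was lower with siRelB than with siRelA by -0.62 ± 0.08. At 9 h against 0 h neither CTSB nor TIMP2 passed, each with a value of -0.10, and their starvation contrasts differed by -0.39 ± 0.13 for CTSB (adjusted p = 0.0323) and -0.31 ± 0.10 for TIMP2 (adjusted p = 0.0297). HPN (-0.05 ± 0.14, adjusted p = 0.859) and TIMP1 (0.04 ± 0.07, adjusted p = 0.772) did not pass at 9 h against 0 h either.

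Of the thrombin and tissue factor genes, F2R, which encodes the thrombin receptor PAR1, rose with siNupr1 by 0.67 ± 0.09 (n = 4 pairs, adjusted p = 4.36e-05) and with siRelA by 0.58 ± 0.12, and fell in EBSS against mock by -0.32 ± 0.10. At 9 h against 0 h F2R differed by 0.11 ± 0.12 and did not pass (adjusted p = 0.573). TFPI, the inhibitor of tissue factor, was lower in EBSS than in mock by -0.46 ± 0.10, with siRelA by -0.50 ± 0.12 and with siRelB by -0.41 ± 0.12. At 9 h against 0 h TFPI differed by 0.27 ± 0.12 and did not pass (adjusted p = 0.114), and its starvation contrasts differed by 0.73 ± 0.16 (adjusted p = 0.00184). F3, the tissue factor gene, lay under the filter. MET, the receptor of the growth factor HGF whose precursor urokinase and related proteases can cut, rose with siRelB by 0.56 ± 0.13 (n = 2 pairs, adjusted p = 0.0068). TGFB1, whose latent product plasmin can release, rose in EBSS over mock by 0.44 ± 0.14 and with siNupr1 by 0.41 ± 0.12. Its siNupr1 pairs were 0.65, 0.78, 0.18 and 0.02 at 0, 3, 6 and 9 h. At 9 h against 0 h TGFB1 differed by 0.26 ± 0.17 and did not pass (adjusted p = 0.315).

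ANXA2 and S100A10, which form a complex that binds plasminogen, together with ENO1 and PLGRKT, gave 4 tested genes. None passed in EBSS against mock, in the hours of starvation, with siNupr1 or with siRelA. Of all genes tested, 51.9% were called in EBSS against mock and 12.3% to 24.3% in the hours of starvation. With siNupr1 18.4% were called and with siRelA 21.5%, so with 4 genes nothing is read from this count. S100A10 fell with siRelB, by -0.19 ± 0.06 against siCtrl (adjusted p = 0.0336, n = 2 pairs) and by -0.19 ± 0.06 against siRelA (adjusted p = 0.0449). Of all genes tested, 16.1% and 10.1% were called there.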

How the data were processed

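RNA of 14 samples was measured on 1 array each. The deposited values are log2 levels of 28869 transcript clusters that the authors made by RMA, per the submitters' processing notes, which also name limma; RMA corrects background, quantile normalizes and summarizes probes, so it compresses dim signals. No version or genome build is recorded in the sources used here. The array annotation gave 19310 clusters 1 symbol (19279 matched by Entrez identifier), hence 18377 genes, with the brightest cluster per gene.

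Tools were limma 3.58.1 in R 4.3.3, with data.table (version 1.17.8). A filter removed the dimmest 40% of genes by mean level, leaving 11026 for testing. A model of 9 columns (set, siRNA, medium or hour) was fitted with lmFit and eBayes with an intensity trend, with 5 residual degrees of freedom (19.6 after moderation). PLAT, SERPINE2 and PLG come from the same fit without the filter. A term for siNupr1 by hour was added in one further fit, and the siRelA and siRelB by medium terms together in another. The threshold was 0.05 on p adjusted by Benjamini-Hochberg. Named genes are the 4 members in every comparison, the silenced genes, in each comparison up to 3 called genes of each pathway list with the largest difference (not all are printed), PLG, and the 3 genes most correlated with each member. LRP1, F3, ANXA2, ENO1 and PLGRKT were named for their roles after their values were seen. The members and lists were chosen with earlier results of these data known. The fit was tested on simulated data. Alternatives were quantile normalization, no filter, no intensity trend, array weights, a set fitted alone, removal of a trend on genomic span, the mean of a gene's clusters and leaving out each array. Promoter windows are from RefSeq (GRCh38.p14).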

Additional observations from a re-analysis of the deposited data

How the results depend on the processing

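PLAU and PLAUR kept the direction of every difference that passed the test under quantile normalization, no filter, no intensity trend, array weights, a fit of the own set alone, removal of the trend on genomic span, the mean of a gene's clusters and each left-out array, and the calls lost without 1 array stand in the report. The PLAU difference of siRelB against siRelA passed only under quantile normalization. Of PLAU and PLAUR differences that did not pass, those that turned sign were the PLAU rise at 9 h over 0 h minus that over mock (0.061 with the span trend removed, and between -0.16 and 0.080 with each array left out), the change of the PLAU siNupr1 difference per hour (between -0.041 and 0.015 with each array left out, above 0 without either 9 h array) and the PLAUR siRelB difference in EBSS minus mock (between -0.051 and 0.069 with each array left out, above 0 without a siCtrl array, where only 1 medium term can be estimated).

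Over all genes, array weights gave 2173 calls at 3 h (1361 in the report's fit), 1517 at 9 h (2675), 3271 with siNupr1 (2033), 39 for the siRelA by medium term (4) and 6 for the siRelB by medium term (0); the own set alone gave 841 for siNupr1 by hour (0); and the siRelA by medium term gave 0 without the intensity trend and 2 with the span trend removed. With each array left out the calls ran from 356 to 1710 at 3 h, 823 to 2990 at 6 h, 1639 to 2703 at 9 h, 4065 to 6253 for EBSS against mock, 1743 to 2994 for the difference of the starvation contrasts, 840 to 2403 for siNupr1, 1120 to 2720 for siRelA, 761 to 2151 for siRelB, 313 to 1442 for siRelB against siRelA, 0 to 66 for siNupr1 by hour, 4 to 25 for siRelA by medium and 0 to 17 for siRelB by medium; the cause was not tested. Of PLAT differences, none of them called, those that turned sign under an alternative were 3 h against 0 h (-0.17 to 0.07), the difference of the starvation contrasts (-0.083 to 0.16), siNupr1 by hour (-0.017 to 0.039), siRelB against siCtrl (-0.039 to 0.093) and siRelB by medium (-0.020 to 0.12). Of uncalled SERPINE2 differences they were 3 h (-0.39 to 0.11) and 6 h (-0.098 to 0.41) against 0 h, siNupr1 by hour (-0.11 to 0.11) and siRelB by medium (-0.53 to 0.038). The repeats of PLAT and SERPINE2 without the filter were chosen after seeing the data. No own-set fit was run for the difference of the starvation contrasts, which spans both sets, or for the medium terms, which together leave that set no residual degrees of freedom. No paired analysis was possible because every combination was on 1 array and the labels carry no replicate numbers to block on; the fit itself compares arrays within an siRNA or a condition. Single arrays, dim signals of PLAT and SERPINE2, the unstated mock medium and the doubtful array titles limit these results.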

Other observations

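The siCtrl cells starved for 9 h were measured in both sets, on 1 array each. PLAU was at 11.26 in the NF-kB set and 11.10 in the Nupr1 set, PLAUR at 9.47 and 9.11, PLAT at 5.71 and 5.72, and SERPINE2 at 4.90 and 4.40. Across the tested genes these arrays correlated at r = 0.905, and 9.26% of genes were at least 2-fold apart. Between the sets PLAUR differed by 0.36 and SERPINE2 by 0.50; set, culture and hybridization cannot be told apart here.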
